A study of Mus musculus with 4 samples.

Results

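The high-coordinate flank of HoxA is the stretch of mouse chromosome 6 beyond Evx1, and it was followed here through 202 HindIII fragments with an insulation score in each of 4 libraries. The members are all fragments of the deposited tables (build mm9) whose midpoint lies at or above 52270000 and whose score is above 0 in every library. They make up 43.8% of the 461 scored fragments of the study, run from 52265586 to 53939620 (1.67 Mb) and have a median length of 5739 bp, with gaps between listed fragments covering 11.7% of the span. The outermost 9 fragments had a listed value of 0 in every library and hold no measurement. The libraries are 5C profiles (chromosome conformation capture carbon copy, which reads ligation products between many restriction fragments of a chosen region with a pool of primers).

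The 4 libraries come from mouse embryonic stem cells (ESC) and from motor neurons (MN) made from them in culture, each in wild type (WT) and in a line whose label reads Δ5|6:7|9 (the deletion line, or Δ line for short). The study is known to have removed 2 CTCF sites inside the HoxA cluster, at Hoxa5|6 and Hoxa7|9, so no sequence of the flank itself is named as edited. ESC medium of both lines held Lif and inhibitors of MEK (1 µM) and GSK3 (3 µM). From day 2, retinoic acid (1 µM) and smoothened agonist (0.5 µM), which steer embryoid bodies towards a ventral spinal fate, were added to make MN. How many clones stand for each line, and whether both alleles carry the deletion, is not given in the sources used here. The tables hold contact scores alone, so the identity of the motor neurons was not checked against marker genes.

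An insulation score summarises how many contacts pass over a fragment. By the usual convention, which the files do not state, low values stand for positions crossed by few contacts, and local minima for boundaries between neighbouring domains. Such boundaries are often bound by CTCF and cohesin, which together halt the extrusion of chromatin loops, and they limit which enhancers can reach which promoters. With rising coordinate the protein-coding genes after Evx1 are Hibadh, Tax1bp1, Jazf1 and Creb5, followed by Tril, Cpvl and Chn2, by their order in the RefSeq annotation of GRCm38.p6. Hibadh encodes a mitochondrial dehydrogenase of valine breakdown. Tax1bp1 encodes an autophagy receptor that also restrains inflammatory signalling, Jazf1 a zinc finger protein that associates with a histone acetyltransferase complex, and Creb5 a leucine zipper transcription factor that binds cAMP response elements. No mm9 annotation or genome was used here, so no fragment was assigned to a gene and no sequence is shown.

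The score is a relative level. Over all scored fragments it averaged 1.00 in each library, while its window and the handling of replicates are not stated in the labels or files used. The labels' protocols describe 3C libraries of 2 biological replicates per sample, but 1 table was deposited per group. No contact or read count was used, which leaves the depth behind each score unknown. Within the flank, 92 scores of WT ESC, 101 of Δ ESC and 102 of WT MN carry an extra last decimal of 5, as a mean of 2 values often does, against 0 of Δ MN. Whether that last table combines as many replicates as the others was not tested, and the point touches every value of Δ MN below. The log2 ratio of neighbouring fragments was correlated along the flank (r between 0.70 and 0.94 over the 4 comparisons), so fragments are not independent points.

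The lower edge of the flank lies on a slope that rises away from low scores just outside it. In WT MN the last fragment outside was itself a shallow low point, below the fragment before it (52242793 to 52253465, 0.547). The last fragment outside, 52253466 to 52265585, scored 0.591 in WT ESC, 0.605 in Δ ESC, 0.526 in WT MN and 0.484 in Δ MN. The first fragment inside, 52265586 to 52278230, scored 0.676, 0.647, 0.534 and 0.496 in the same order. From there the scores climbed in all 4 libraries to a peak, at 52358808 to 52361120 in WT ESC (1.55), Δ ESC (1.47) and WT MN (1.45), and on the next fragment, 52361121 to 52364565, in Δ MN (1.38).

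Across the flank the mean score was 1.02 in WT ESC (SD 0.233 over fragments), 1.01 in Δ ESC (SD 0.221), 1.01 in WT MN (SD 0.211) and 0.996 in Δ MN (SD 0.222). The lowest fragment was 53727321 to 53745028 in WT ESC (0.562), Δ ESC (0.595) and Δ MN (0.489). In WT MN that fragment scored 0.552, and the first member of the flank was lower, at 0.534. A short way above this trough lay the highest scores of the whole profile. The fragment from 53838542 to 53850958 reached 2.00 in WT ESC, and its neighbour 53850959 to 53857472 reached 1.92 in Δ ESC, 1.87 in WT MN and 1.95 in Δ MN. In 3 of the 4 libraries the flank's lowest and highest scores thus lay in neighbouring windows of 100 kb, and both trough and peak were present in all 4.

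**Figure D1:**
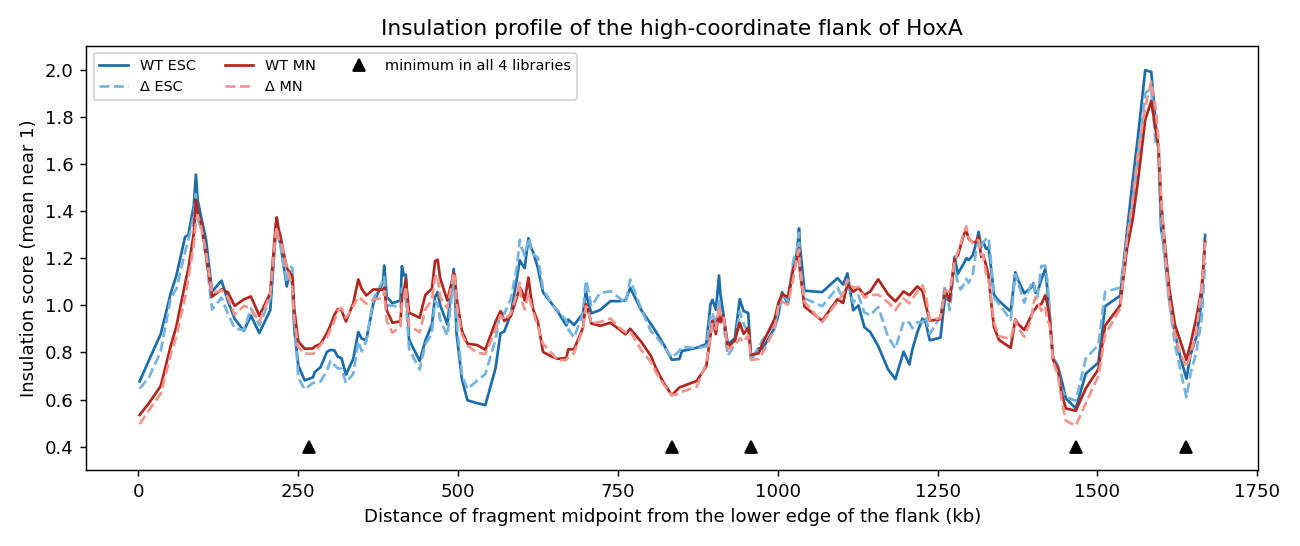
Insulation score (y axis, relative units with a mean near 1) of the 202 fragments against the distance of their midpoint from the lower edge of the flank in kb (x axis), for WT ESC (solid dark blue), Δ ESC (dashed light blue), WT MN (solid dark red) and Δ MN (dashed light red). Black triangles mark the 5 sites with a local minimum in all 4 libraries, and the highest peak of each library, from 1.87 to 2.00, lies between the last 2 of them.

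Local minima were called on the log2 score at a prominence of at least 0.25, the height by which the profile rises on both sides before it falls lower. This gave 10 minima of the flank in WT ESC, 12 in Δ ESC, 11 in WT MN and 12 in Δ MN. Minima of any library within 20 kb of each other were joined, which left 18 sites, and 5 of these held a minimum in all 4 libraries.

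The 5 shared sites differed in depth. The deepest was 53727321 to 53745028, with prominences of 1.47 in WT ESC, 1.31 in Δ ESC, 1.39 in WT MN and 1.498 in Δ MN. These were measured to the peak near the lower edge of the flank, at 52358808 to 52361120 or, in Δ MN, 52361121 to 52364565. They are thus not the depth against the nearest shoulders. The outermost, 53907252 to 53911207, scored 0.688 in WT ESC, 0.609 in Δ ESC, 0.768 in WT MN and 0.740 in Δ MN. At 53224752 to 53231787 the 4 libraries were closest, with scores of 0.775, 0.766, 0.789 and 0.768. At these 3 sites the minimum was on the same fragment in all libraries, and likewise at 53095876 to 53112781.

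The other 2 shared sites moved in opposite directions between cell states. At 53095876 to 53112781 the score was 0.769 in WT ESC and 0.777 in Δ ESC but 0.618 in WT MN and 0.619 in Δ MN. Both MN scores lay below both ESC scores. The prominence was 0.74 and 0.40 in ESC against 1.09 and 1.11 in MN, but it was measured to different peaks. These were 52878983 to 52881176 in WT ESC, 53177820 to 53178511 in Δ ESC and 53563999 to 53565992 in both MN libraries. The prominences thus do not give the change in depth against a common shoulder. At 53177820 to 53178511 the scores were 1.13 in WT ESC, 1.03 in Δ ESC, 0.982 in WT MN and 1.00 in Δ MN. At 52526480 to 52533831 the score was 0.681 and 0.643 in ESC but 0.815 and 0.795 in MN, so this dip was shallower in MN in both lines. In Δ MN its minimum was called at a close neighbour, 52541630 to 52544418, with a score of 0.794 against 0.795. In an additive fit of state and line over the 4 libraries (limma, described below), the state difference had an adjusted p of 0.0058 at the first and 0.0079 at the second of these fragments. The outermost shared site was also higher in MN in both lines, with an adjusted p of 0.023 (limma). At 53727321 to 53745028 the adjusted p was 0.14 and at 53224752 to 53231787 it was 0.76 (limma).

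Some minima were called in a single state. The fragments from 52661516 to 52673293 and from 52921148 to 52930277 held a minimum in WT MN and Δ MN but in no ESC library. At the second of them the scores were 0.974 in WT ESC, 0.978 in Δ ESC, 0.773 in WT MN and 0.765 in Δ MN, and WT ESC had a dip of 0.23 within 20 kb. A minimum of Δ ESC alone was called a little farther up, at 52947116 to 52955718, with a prominence of 0.36 and scores of 0.916 in WT ESC, 0.862 in Δ ESC, 0.813 in WT MN and 0.797 in Δ MN. The first was close to the calling limit, with a prominence of 0.26 in both MN libraries and the dips within 20 kb were 0.21 in WT ESC and 0.11 in Δ ESC. The reverse was seen at 53449496 to 53458518, called in WT ESC and Δ ESC but not in MN. It scored 0.687 in WT ESC, 0.816 in Δ ESC, 1.02 in WT MN and 0.979 in Δ MN, with a prominence of 0.93 and 0.66 in ESC and no dip above 0.15 within 20 kb in MN. The minimum at 53187512 to 53196162 was also called in ESC alone, but its prominence was 0.30 and 0.31 there and a dip of 0.17 lay nearby in WT MN.

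**Figure D2:**
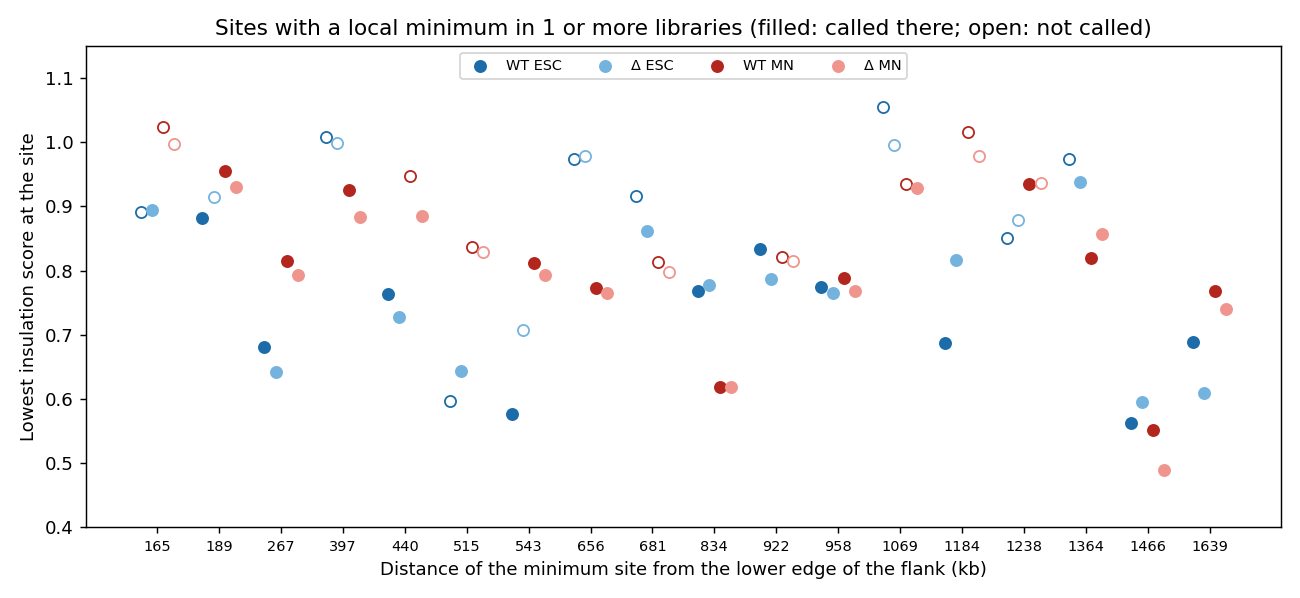
Lowest insulation score (y axis, relative units) at each of the 18 sites with a local minimum in 1 or more libraries, ordered by distance from the lower edge of the flank in kb (x axis). Filled points mark libraries in which the minimum was called and open points those in which it was not: the site at 1184 kb is filled in ESC alone and that at 656 kb in MN alone.

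The remaining sites were called in 1 library or in 3. At 53628586 to 53640169 a minimum was called in 3 libraries, and WT ESC had a dip of 0.25 there (0.246, under the limit). At 52702039 to 52717873 WT MN was the exception, with a dip of 0.23. At 2 of the 3-library sites the minimum of Δ ESC lay 1 site lower in coordinate than that of the other libraries. Its score at 52425692 to 52444350 was 0.895 against 0.915 at 52449470 to 52468785, while WT ESC scored 0.891 and 0.882, a small difference in each. Its score at 52780718 to 52788549 was 0.644 against 0.708 at 52802587 to 52822761, while WT ESC scored 0.597 and 0.576. The minima of each library can be set against those of another within 20 kb. Of the 10 minima of WT ESC 8 had a partner in Δ ESC, which is 66.7% of the 12 there. Of the 11 of WT MN 10 had a partner in Δ MN (83.3% of its 12). Between states in WT, 7 of 10 and 7 of 11 were partnered. These shares rest on few minima and on 1 library each, and were not tested against each other.

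The deletion of the HoxA sites was asked for its reach into the flank. In MN the 2 lines were nearly superimposed. The log2 ratio of Δ line over WT had a mean of -0.025 (SD 0.044 over 202 fragments) and ran from -0.18 to 0.11, and the log2 scores of both lines correlated with r = 0.99 across fragments. No member was higher or lower by 0.25 or more (1.19-fold), against 2.17% higher and 0.868% lower over all 461 fragments. Scores were slightly below WT at 144 of the 202 fragments (71.3%), beside 59.9% of all 461 fragments. Of the 17 windows of 100 kb, 15 had a mean below 0. The lowest window means were -0.064, in the first 100 kb of the flank, and -0.055, between 400 and 500 kb. Means at the far end were almost as low, at -0.054 between 1400 and 1500 kb and -0.053 between 1600 and 1700 kb.

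The 3 largest decreases and the 2 largest increases in MN lay far from the cluster, on either side of the step from deepest dip to highest peak. The 3 neighbouring fragments from 53714944 to 53758621 were lower in the Δ line, and the middle one, 53727321 to 53745028, went from 0.552 in WT to 0.489, 1.13-fold lower. The 2 fragments from 53822129 to 53838541 were higher, from 1.37 to 1.45 and from 1.53 to 1.65. With quantile normalization of the 4 libraries the log2 ratio of the fragment 53714944 to 53726533 went from -0.14 to -0.088, and that of 53822129 to 53828582 from 0.087 to 0.042. With 1 library per line no spread between replicates is known, and the table with the different decimals is the Δ MN one.

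In ESC the 2 lines were also close, with a mean log2 ratio of -0.0092 (SD 0.088) and a range from -0.18 to 0.31. Of the members 4 were higher by 0.25 or more (1.98%), against 3.9% over all fragments, and none was lower, against 0.217%. All 4 belonged to 2 separate stretches, each a dip of the WT ESC profile that was shallower in Δ ESC. Both were marked out afterwards as runs of at least 3 fragments with a log2 ratio of 0.1 or more.

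The first stretch covers 6 fragments from 52780718 to 52846107 (65.4 kb). Its mean score was 0.710 in WT ESC, 0.804 in Δ ESC, 0.886 in WT MN and 0.869 in Δ MN. WT ESC was thus the lowest of the 4 and Δ ESC lay between it and the MN libraries. The largest difference was at 52802587 to 52822761, with 0.576 in WT ESC and 0.708 in Δ ESC, 1.23-fold higher, beside 0.811 and 0.793 in MN. The mean log2 ratio of Δ line over WT was 0.19 in ESC (SD 0.074) and -0.030 in MN (SD 0.025).

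The second stretch covers 7 fragments from 53410780 to 53483543 (72.8 kb) and shows the same order of libraries. Its mean score was 0.784 in WT ESC, 0.913 in Δ ESC, 1.06 in WT MN and 1.02 in Δ MN. The largest difference was at 53473941 to 53477716, where WT ESC scored 0.748 and Δ ESC 0.926, 1.24-fold higher. The mean log2 ratio was 0.22 in ESC (SD 0.068) and -0.049 in MN (SD 0.020), and the fragment 53473941 to 53477716 had the largest difference between the deletion's log2 ratios in MN and ESC of the flank (-0.36). The comparison of lines in ESC and that of states in WT share the WT ESC library. A low value of that library alone would enter both, and with 1 library this cannot be told apart from a change in either comparison.

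Scores of Δ ESC were slightly below WT at 117 of the 202 fragments (57.9%), near the 56.4% of all 461 fragments. Window means were below 0 in 11 of the 17 windows, including all 5 of those nearest HoxA. Runs of 1 sign, given next, were bounded by that sign itself, which fixes the side of their means. The first 16 members, from 52265586 to 52425691, were all below WT, with a mean log2 ratio of -0.076 (SD 0.032). So were all 15 from 52515316 to 52632164 (mean -0.090, SD 0.034) and all 16 from 52653546 to 52764097 (mean -0.068, SD 0.035). Runs above WT lay among them: 7 fragments from 52425692 to 52491338 (mean 0.035) and 5 from 52493819 to 52515315 (mean 0.046). The 15 fragments from 52764098 to 52881176 were all above WT as well (mean 0.11), so the lowering was not continuous. Farther out, runs below WT included 14 fragments from 53132851 to 53231787 (mean -0.074) and 10 from 53534443 to 53587031 (mean -0.079). A run of 11 from 53383858 to 53492894 was above WT (mean 0.17). Runs below WT were thus not confined to the end next to HoxA. The largest decrease was at the outermost shared minimum, 53907252 to 53911207, from 0.688 to 0.609 (1.13-fold lower), within 6 lower fragments that reach the end of the scored flank (mean log2 ratio -0.13). The last member, 53937285 to 53939620, scored 1.30 in WT ESC, 1.18 in Δ ESC, 1.27 in WT MN and 1.27 in Δ MN. Other runs lower by 0.1 or more lay at 53553275 to 53578834 (5 fragments, -0.11), 52681663 to 52689108 (3 fragments, -0.12) and 53168750 to 53182130 (3 fragments, -0.12). In MN the same runs had mean log2 ratios of -0.056, 0.0089, -0.038 and 0.036. Along the flank the deletion's log2 ratios in ESC and in MN, which share no library, had a correlation of -0.11 over 202 neighbouring fragments, a description without a test.

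**Figure D3:**
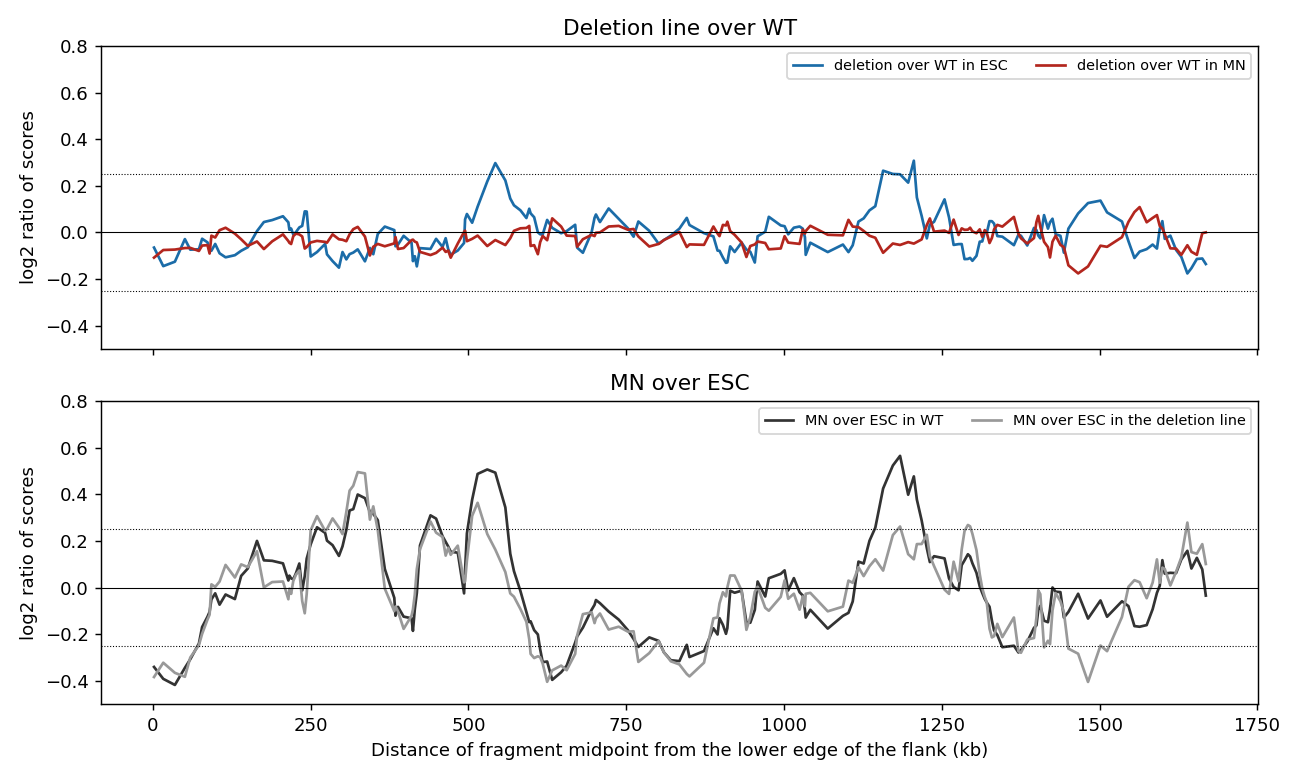
Log2 ratio of insulation scores (y axis) along the flank (x axis, kb from its lower edge). The upper panel gives Δ line over WT in ESC (blue) and in MN (red), the lower panel MN over ESC in WT (black) and in the Δ line (grey), and dotted lines stand at 0.25 and -0.25. In the upper panel the ESC curve passes the upper dotted line within 2 stretches and the MN curve at none, while both curves of the lower panel pass it repeatedly.

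The cell states differed more than the lines. The SD of the log2 ratio of MN over ESC was 0.20 in WT and 0.20 in the Δ line, next to 0.088 and 0.044 for the deletion. In WT, 23 fragments were higher and 20 lower in MN by 0.25 or more (11.4% and 9.9% of the members), beside 12.8% and 11.3% of all fragments. In the Δ line, 18 were higher and 30 lower (8.91% and 14.9%), beside 12.4% and 14.8% of all. Over the whole flank the mean log2 ratio was -0.0056 in WT and -0.021 in the Δ line, and -0.064 and -0.081 with each library scaled to the median of the low-coordinate flank. The pattern along the flank was alike in both lines: the log2 ratios of WT and of the Δ line, which share no library, correlated with r = 0.87 over the 202 fragments, and all 17 windows of 100 kb had a mean of the same sign in both, 8 higher and 9 lower.

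In both lines at once, 11 members were higher and 19 lower by that limit (5.45% and 9.41%), beside 8.46% and 9.33% of all. A change with state that is common to both lines was tested by fitting state and line as additive terms over all 461 fragments (limma on log2 scores, Benjamini-Hochberg adjustment over all of them). Its residual is the difference between the lines in their response, with 1 degree of freedom per fragment. The fit moderates this with 3.4 prior degrees of freedom drawn from all fragments. The adjusted p thus sets the size of the mean change against a largely pooled difference between the lines. It measures neither the agreement of the lines at a single fragment nor the spread between cultures. At an adjusted p below 0.05, 42 members were higher in MN and 54 lower, which is 20.8% and 26.7% of the flank, beside 21.7% and 23.0% of all fragments. At an unadjusted p below 0.05 the counts were 54 and 65, or 26.7% and 32.2% of the flank, beside 26.7% and 27.5% of all. Both MN scores lay above both ESC scores at 68 members and below both at 91, which is 33.7% and 45.0% of the flank, beside 33.8% and 41.0% overall. The higher calls came at about the rate of the whole region, and the lower calls at a slightly greater one, which was not tested. For the line term the fit (limma) called 0 members at an adjusted p below 0.05 in either direction, beside 0.217% of all fragments higher and 0.0% lower, and at an unadjusted p below 0.05 it gave 0 higher and 5 lower (2.48%), beside 3.25% and 1.74% of all.

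The called fragments fell into blocks. Runs of at least 3 neighbours called the same way held 38 of the 42 higher and 46 of the 54 lower members. Beyond the longest run of each direction, the runs given here were chosen after their values were seen. The longest run of lower scores covered 15 fragments from 52983590 to 53167025 (183 kb), and a run of 13 from 52865096 to 52955718 came shortly before it. The mean score of the longer run was 0.916 in WT ESC, 0.922 in Δ ESC, 0.784 in WT MN and 0.777 in Δ MN. It includes the shared minimum at 53095876 to 53112781, which scored lower in MN. The run of 13 went from 1.10 and 1.11 in ESC to 0.922 and 0.906 in MN and holds the minimum at 52921148 to 52930277 called in MN and that at 52947116 to 52955718 called in Δ ESC. Within it, 52896960 to 52908680 fell from 1.05 in WT ESC to 0.802 in WT MN, 1.32-fold, and from 1.07 to 0.836 in the Δ line.

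The longest run of higher scores also had 15 fragments, from 52515316 to 52632164 (117 kb). Its mean score was 0.775 in WT ESC, 0.729 in Δ ESC, 0.935 in WT MN and 0.914 in Δ MN. The largest differentiation change of the Δ line lay here, at 52588662 to 52600674, from 0.671 in ESC to 0.946 in MN, 1.41-fold higher, and in WT this fragment went from 0.706 to 0.931. In ESC this run was a broad trough with its lowest score near its start, at the shared minimum 52526480 to 52533831. In WT MN the part from 52573410 on scored between 0.931 and 1.11, and the part before it between 0.815 and 0.916. Further runs of higher scores lay at 52689167 to 52762232 (8 fragments, mean log2 ratios of 0.21 in WT and 0.19 in the Δ line) and at 52765428 to 52822761 (5 fragments, 0.42 and 0.24).

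At the end next to HoxA, scores were lower in MN. The first 8 members, from 52265586 to 52358807, were all called lower (limma, adjusted p between 0.0058 and 0.046), with mean log2 ratios of -0.29 in WT (SD 0.10) and -0.29 in the Δ line (SD 0.091). Their mean score was 1.06 in WT ESC, 1.02 in Δ ESC, 0.884 in WT MN and 0.842 in Δ MN. The largest decrease of WT in the flank was among them, at 52290826 to 52319093, from 0.878 in ESC to 0.657 in MN, and the Δ line went there from 0.805 to 0.625. Quantile normalization moved 2 of the recomputed ratios of MN over ESC among these members by over 1.5 times: at 52284579 to 52288485 the log2 ratio in WT went from -0.39 to -0.26. At 52265586 to 52278230, that of the Δ line went from -0.38 to -0.15. Farther out, a run of 10 lower fragments from 53598021 to 53670515 had mean log2 ratios of -0.21 in WT and -0.20 in the Δ line.

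The largest increase with differentiation in WT was within the second of the stretches that differed between lines in ESC. The fragment 53449496 to 53458518 went from 0.687 in WT ESC to 1.02 in WT MN, 1.48-fold higher, and from 0.816 to 0.979 in the Δ line. Over the 3 fragments from 53435602 to 53473940 the mean log2 ratio was 0.50 in WT and 0.21 in the Δ line. The neighbour 53473941 to 53477716 scored 0.748 in WT ESC and 1.04 in WT MN, against 0.926 and 1.01 in the Δ line, and its adjusted p in the fit (limma) was 0.056. In the outer trough the lines differed the other way: at 53745029 to 53758621 the log2 ratio of MN over ESC was -0.13 in WT and -0.40 in the Δ line, from 0.710 to 0.647 and from 0.775 to 0.585, and the fit called its mean change lower (limma, adjusted p = 0.044). The difference between the lines in these responses was not tested, as a state and line together hold a single library.

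**Figure D4:**
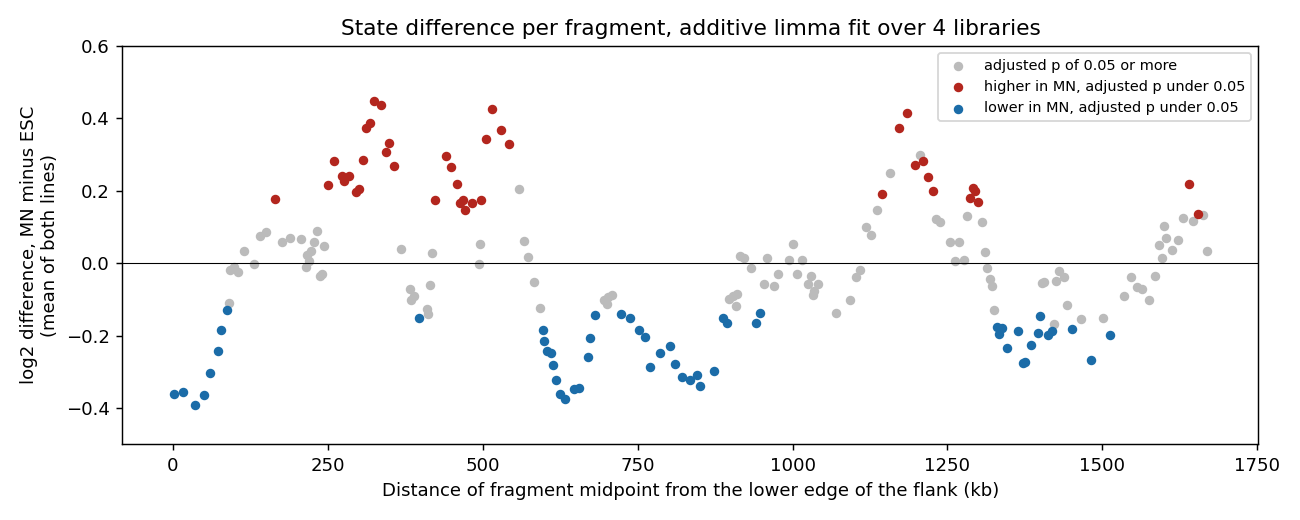
Difference of log2 scores, MN minus ESC, averaged over both lines (y axis) for each of the 202 fragments along the flank (x axis, kb from its lower edge), from the additive limma fit. Red points are higher and blue points lower in MN at an adjusted p under 0.05 (42 and 54 fragments), grey points did not pass, and most of the called points lie in blocks.

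The flank was set beside the opposite, low-coordinate flank, taken as the fragments whose midpoint lies 400 kb or more below the lower edge, which happen to number 202 as well. Scores varied less in the high-coordinate flank: the SD of log2 scores was 0.32 in WT ESC, 0.31 in Δ ESC, 0.30 in WT MN and 0.32 in Δ MN, against 0.41, 0.41, 0.46 and 0.49. The SD of the differentiation change was near 0.20 in both flanks (0.18 in WT on the low side). Scores of ESC and MN correlated less in the high-coordinate flank, with r = 0.79 in WT and 0.80 in the Δ line against 0.92 and 0.91. That is not a separate difference, as r follows from the SDs of the scores and of the change. The deletion's SD was 0.088 in ESC and 0.044 in MN here, against 0.087 and 0.069 there. Local minima numbered 10 to 12 per library here and 10 to 11 there. With 1 library per group none of these differences between the flanks was tested.

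Fragment length moved with the score. Minima lay on long fragments: the 19 fragments that were a minimum in any library had a median length of 10680 bp against 5462 bp for the other members, and 17 of them were longer than the median of the flank. The 51 longest members (9774 to 41571 bp) had mean scores of 0.933 in WT ESC, 0.935 in Δ ESC, 0.914 in WT MN and 0.900 in Δ MN, while the 51 shortest (692 to 3259 bp) had 1.10, 1.08, 1.07 and 1.05. The correlation of log2 length with log2 score was between -0.31 and -0.28 in the 4 libraries. Its part in the position of the minima was not tested. Length is the same in all libraries, and its correlation with the log2 ratios ran from -0.046 to 0.12. The longest member, 53318659 to 53360229, was a minimum in Δ MN alone, with a score of 0.928 beside 0.935 in WT MN, where the dip of 0.25 (0.248) just missed the limit. A minimum of WT MN alone lay at 53502506 to 53513185, with scores of 0.851 in WT ESC, 0.878 in Δ ESC, 0.935 in WT MN and 0.937 in Δ MN, where the dip was 0.24.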

How the data were processed

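The deposited tables give start, end and 1 combined insulation score per HindIII fragment, the output of a program of the authors that combined insulation values, per the file headers. The submitters' processing notes name Bowtie 1 and the build mm9, and cells were fixed in 1% formaldehyde, per the labels' protocols. The files name no chromosome, and chromosome 6 is where RefSeq's GRCm38.p6 places these genes. Scores above 0 were kept, log2 ratios were taken per fragment without a pseudocount, and the additive fit used limma 3.58.1 in R 4.3.3 (1 residual and 3.4 prior degrees of freedom). Minima were called with scipy 1.17.1. Named fragments were drawn from the 5 largest increases and decreases of each comparison, every minimum, the extremes of each library, the first and last members and the longest run of each direction. Runs in the deletion ratios, at 0.1 or more, were added after the values were seen, and runs of 1 sign are not in that list either. The members, lists and limits were chosen with earlier results of these data known. The fit and the call of minima were tried on simulated data. For the fit, noise was drawn independently per fragment and the planted changes were larger than those called in the flank. Ratios of neighbouring fragments are correlated here, so that trial does not give the error rate of the calls. Alternatives covered scaling, weights, edges, limits and prominences. No sequence was read, as no mm9 genome was used here.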

Additional observations from a re-analysis of the deposited data

Results flagged for a closer look

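The fragment from 53745029 to 53758621, on the upper slope of the deepest dip of the flank, differed between the lines in opposite directions in the 2 cell states, by at least 0.1 on the log2 scale each. Δ line over WT was 0.13 in ESC (0.710 to 0.775) and -0.15 in MN (0.647 to 0.585), a difference of -0.27. The difference was not tested, as no group holds a replicate, and the Δ MN table is the one with other decimals. No other member met this limit in the deletion comparisons, and none did for MN over ESC between the lines.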

How the results depend on the processing

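No paired analysis was possible by replicate number because each group holds 1 library. The additive fit sets MN against ESC within each line, and without the line term it called 37 higher and 48 lower members (limma). Of 102 recomputed summaries of the flank, 90 stayed within 1.5 times (counts and SDs) or within the SD of the 100 kb window means (mean ratios) and 12 moved, through the limit or prominence alone. Higher members in ESC with the deletion (4) became 8 at a log2 limit of 0.2 and 1 at 0.3. For MN over ESC in WT, lower members (20) became 32 and 12. In the Δ line, higher members (18) became 29 and 9, and lower members (30) became 17 at 0.3. At a prominence of 0.4, minima fell to 7 in WT MN (from 11) and to 7 in Δ MN (from 12). The WT ESC minima with a partner in all other libraries (5) became 9 at a prominence of 0.15. At an adjusted p limit of 0.01 (limma) the state calls became 14 higher and 22 lower. The mean ratios near 0 changed sign in 3 cases, to 0.0027 for the deletion in ESC (low-flank median scaling) and to 0.0016 (quantile normalization) and 0.0078 (edge 130 kb higher) for differentiation in WT. Scaling to the low-flank median moved the latter to -0.064, and that of the Δ line from -0.021 to -0.081. Named fragments kept their direction under 3 scalings added after the data were seen, 115 values stayed within the SD used as their spread and 5 moved beyond it, all with quantile normalization. Among them, MN over ESC in the Δ line at 52265586 to 52278230 went from -0.38 to -0.15 with quantile normalization. Unknown depth limits every value.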
